A study of Mus musculus with 7 samples.

Results

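In this series, 8 features were set apart because the reads counted on them may come from ribosomal RNA (rRNA): the annotated rRNA gene CT010467.1, the long non-coding RNAs Gm42418 and AY036118 at the same place, the protein-coding genes Cmss1, Lars2 and Camk1d, and the mitochondrial rRNAs mt-Rnr1 and mt-Rnr2. They were picked by name, with their levels in these samples known. Of the 8 members asked for, 6 had a row among the 30879 rows of the expression table, and Gm42418 and AY036118 are not analysed here. The 7 samples came from thyroid of wild type C57BL/6 mice and comprised 2 of primary thyroid tissue, 3 of late passage thyroid follicular cell organoids (TFCOs) and 2 of early passage TFCOs. TFCOs consist of thyroid follicular cells (TFCs), the hormone-producing epithelium of the gland, and were grown in basement membrane extract with R-spondin 3, a TGFβ inhibitor, forskolin, EGF and FGF10. The labels give neither the age of the mice nor which animal gave which organoid line, so p-values measure only the spread between these samples. Live single cells were sorted into 384-well plates and sequenced by SORT-seq, in which each RNA molecule carries a unique molecular identifier (UMI).

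Ribosomal RNA is the bulk of the RNA of a cell. The cytosolic rRNAs are copied from repeated genes in the nucleolus by RNA polymerase I and have no poly(A) tail, so that poly(T) priming, as used in SORT-seq, should pass them by unless the primer lands on a run of A within the molecule or the RNA is being degraded. The mitochondrial rRNAs are copied from the mitochondrial genome, upstream of its mRNAs and on the same strand as most of them, and carry short tails. Reads of rRNA can also be placed on other genes where the genome holds copies or fragments of rRNA sequence, and Gm42418 is known for this in mouse data. Cmss1 encodes the homologue of a yeast protein linked to the small ribosomal subunit, Lars2 the mitochondrial leucyl-tRNA synthetase and Camk1d a calcium/calmodulin-dependent kinase.

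In the GENCODE annotation of mouse build GRCm38, CT010467.1 lies at chr17:39846353-39848827 on the minus strand and is classed as rRNA. Gm42418 lies at chr17:39846958-39848788 on the plus strand and AY036118 at chr17:39847113-39848035 on the minus strand, both classed as lincRNA. The 3 annotated transcripts thus share sequence. Of the 1800 stretches of 50 bases in the CT010467.1 transcript, 1195 (66.4%) occurred on the opposite strand of Gm42418 and 874 (48.6%) in AY036118, and every stretch of AY036118 occurred in both of the others. The same 60 bases are given from the 3 transcripts, with runs of 5 or more A in capitals, because they contain the longest run of A of this locus.
CT010467.1, bases 1003 to 1062: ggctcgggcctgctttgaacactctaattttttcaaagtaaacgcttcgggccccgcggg
AY036118, bases 837 to 896: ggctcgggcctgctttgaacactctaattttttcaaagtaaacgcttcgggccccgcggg
Gm42418, bases 183 to 242: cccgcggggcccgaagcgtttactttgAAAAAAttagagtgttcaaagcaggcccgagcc
The run of 6 A is on the strand of Gm42418, whereas the longest run in CT010467.1 itself was 4 A. Whether strand was used in counting is not stated in the sources used here, so reads of the overlapping transcripts cannot be told apart and the CT010467.1 row may hold reads of either strand.

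The mitochondrial rRNAs lie side by side at chrM:70-1024 (mt-Rnr1) and chrM:1094-2675 (mt-Rnr2), both on the plus strand. Their longest runs of A fall in these 60-base windows, given to set them beside the nuclear locus.
mt-Rnr1, bases 643 to 702: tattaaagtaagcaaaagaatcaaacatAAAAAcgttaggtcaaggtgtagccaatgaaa
mt-Rnr2, bases 368 to 427: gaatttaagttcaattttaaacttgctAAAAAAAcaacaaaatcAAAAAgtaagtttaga
The window of mt-Rnr2 holds a run of 7 and a run of 5 A, and that of mt-Rnr1 a run of 5. Of the 55341 genes with a transcript in the annotation, 18.0% held a run of at least 8 A in their longest transcript, which none of these 5 transcripts did. Cmss1 (chr16:57302000-57606864, minus strand), Lars2 (chr9:123366927-123462666, plus strand) and Camk1d (chr2:5293457-5714515, minus strand) are long genes, of which the exons make up little. The longest exonic transcript of Cmss1 and of Camk1d shared no stretch of 50 bases with any other annotated transcript, and that of Lars2 shared 3 with 1 other gene. The longest run of A was 13 in the transcript of Camk1d, 6 in that of Lars2 and 4 in that of Cmss1. Camk1d is thus among the 18.0% of genes with a run of at least 8 A. Their introns could not be read here, so whether these 3 genes hold rRNA sequence there was not tested. Cmss1 has 3 annotated genes on its opposite strand, among them Filip1l, and Camk1d has 1, so that their rows are uncertain too if strand was not used.

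The samples held 358 to 383 cells each, and total depth ran from 1406925 UMIs in tissue 1 to 4703472 in late 2. The 2035 of 2590 cells with at least 1000 UMIs were used unless stated. Clustering of these cells gave 53 and 51 TFC-like cells in the tissue samples, beside 140 and 118 endothelial-like cells and smaller sets of immune-like, stromal-like and mural-like cells, and all TFCO cells fell in TFC-like clusters. The 12 TFC markers had rows throughout, but their summed level ran from 112 to 203 UMIs per 10000 in TFCOs and was 1560 and 1130 in TFC-like cells of tissue. Of these tissue sums, 1520 and 1090 came from 1 marker, the thyroglobulin mRNA Tg. The 10 endothelial markers summed to 12.7 and 14.4 UMIs per 10000 in the TFC-like cells of tissue and 6.85 to 10.5 in TFCOs, so neither set was free of them. One cluster of 75 endothelial-like cells was led by repeat rows rather than by endothelial markers. Among the TFCO clusters only 1, of 84 cells, had a TFC marker in its 10 leading genes. The others were named by the share of cells with TFC markers. The plates share a set of 384 well barcodes, 305 of which were used in all 7 samples. A level here is the mean over cells of UMIs per 10000 UMIs of the cell, without division by gene length, so levels are compared between samples and not between genes.

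The 6 rows together took 2.97% and 3.37% of a cell's UMIs on average in the tissue samples. In the late TFCOs they took 2.49%, 7.40% and 1.61%, and in the early TFCOs 3.89% and 1.31%. The tissue values lay within the range of the organoid samples. They cover all tissue classes, with only 53 of 305 and 51 of 273 cells TFC-like, so the 2 sides differ in cell type. In tissue TFC-like cells CT010467.1 was at 140 and 150 UMIs per 10000, against 70.3 and 93.1 over all tissue cells. For mt-Rnr2 the values were 375 and 342 against 143 and 142. Late 2 was the highest and early 2 the lowest of the 5 TFCO samples, 5.65-fold apart. Late 2 was also the deepest sample, with a median of 11831 UMIs per cell against 3898 to 5718.5 in the other TFCO samples. The ribosomal protein genes, whose mRNAs are polyadenylated, did not follow this order, with a mean of 3.10% of UMIs in late 2, 4.39% in late 1, 3.89% in late 3, 2.48% in early 1 and 2.11% in early 2.

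CT010467.1, the row annotated as rRNA, stood at 140 and 150 UMIs per 10000 in the TFC-like cells of the tissue samples. It stood at 62.1, 273 and 39.2 in the late TFCOs and at 113 and 23.5 in the early TFCOs. Late 2 was above both tissue samples and the other 4 TFCO samples were below them. Within a sample the cells also differed widely, with a standard deviation over cells of 102 and 133 in tissue TFC-like cells and of 223 in late 2. Nearly every cell had the row, with at least 1 UMI in 100% of tissue TFC-like cells and in 98.4%, 100%, 99.2%, 99.6% and 88.5% of cells of late 1 to 3 and early 1 and 2. With each cell thinned to 1000 UMIs, these TFCO shares were 87.9%, 99.4%, 81.0%, 97.4% and 67.1%, in the order of the mean levels.

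Camk1d ran alongside it, at 104 and 130 UMIs per 10000 in the TFC-like cells of tissue. Late TFCOs had 23.8, 66.9 and 23.2 and early TFCOs 52.0 and 12.1, so that no organoid sample reached the tissue samples. Cmss1 was at 45.4 and 53.5 in tissue TFC-like cells, 4.53, 21 and 6.48 in late TFCOs and 6.31 and 1.74 in early TFCOs. The means of the groups did not overlap for Cmss1 either, and late 2 stood far above the other organoid samples. Cells were very uneven for Cmss1, with a standard deviation of 101 and 78.9 in tissue TFC-like cells. Its median over cells was 13.0 and 18.1 there and 15.1 in late 2, so the medians did overlap. Lars2 was near the lower limit of the measurement, at 0.911 and 0.815 in tissue and from 0.393 in early 2 to 2.01 in late 2, with the tissue samples inside the organoid range.

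The mitochondrial rRNAs were likewise highest in late 2 and early 1 among the TFCOs, and lowest in late 3, with early 2 close to it. mt-Rnr2, the RNA of the large mitochondrial ribosomal subunit, was at 375 and 342 UMIs per 10000 in the TFC-like cells of tissue, with 128, 308 and 74.5 in late TFCOs and 177 and 75.9 in early TFCOs. mt-Rnr1, the RNA of the small subunit, was at 72.4 and 55.4 in tissue, with 30.5, 69.5 and 16.7 in late TFCOs and 39.9 and 16.9 in early TFCOs. For mt-Rnr1 late 2 lay between the tissue samples, and for mt-Rnr2 the mean of every organoid sample lay below both. The median of mt-Rnr2 over cells was 280 in late 2, between the 323 and 240 of tissue TFC-like cells. Over cells of 1000 to 5000 UMIs, however, late 2 (36 cells) lay above both tissue samples for each row. There mt-Rnr2 was at 439 in late 2 against 367 and 366 in tissue TFC-like cells, and mt-Rnr1 at 91.3 against 68.7 and 58.7. The summed mitochondrial mRNAs did not spread in this way among TFCOs, as late TFCOs had 279, 335 and 361 UMIs per 10000 and early TFCOs 328 and 345. Accordingly mt-Rnr2 made 0.918 of the level of the mitochondrial mRNAs in late 2 but 0.206 in late 3, against 0.688 and 0.819 in tissue.

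**Figure D1:**
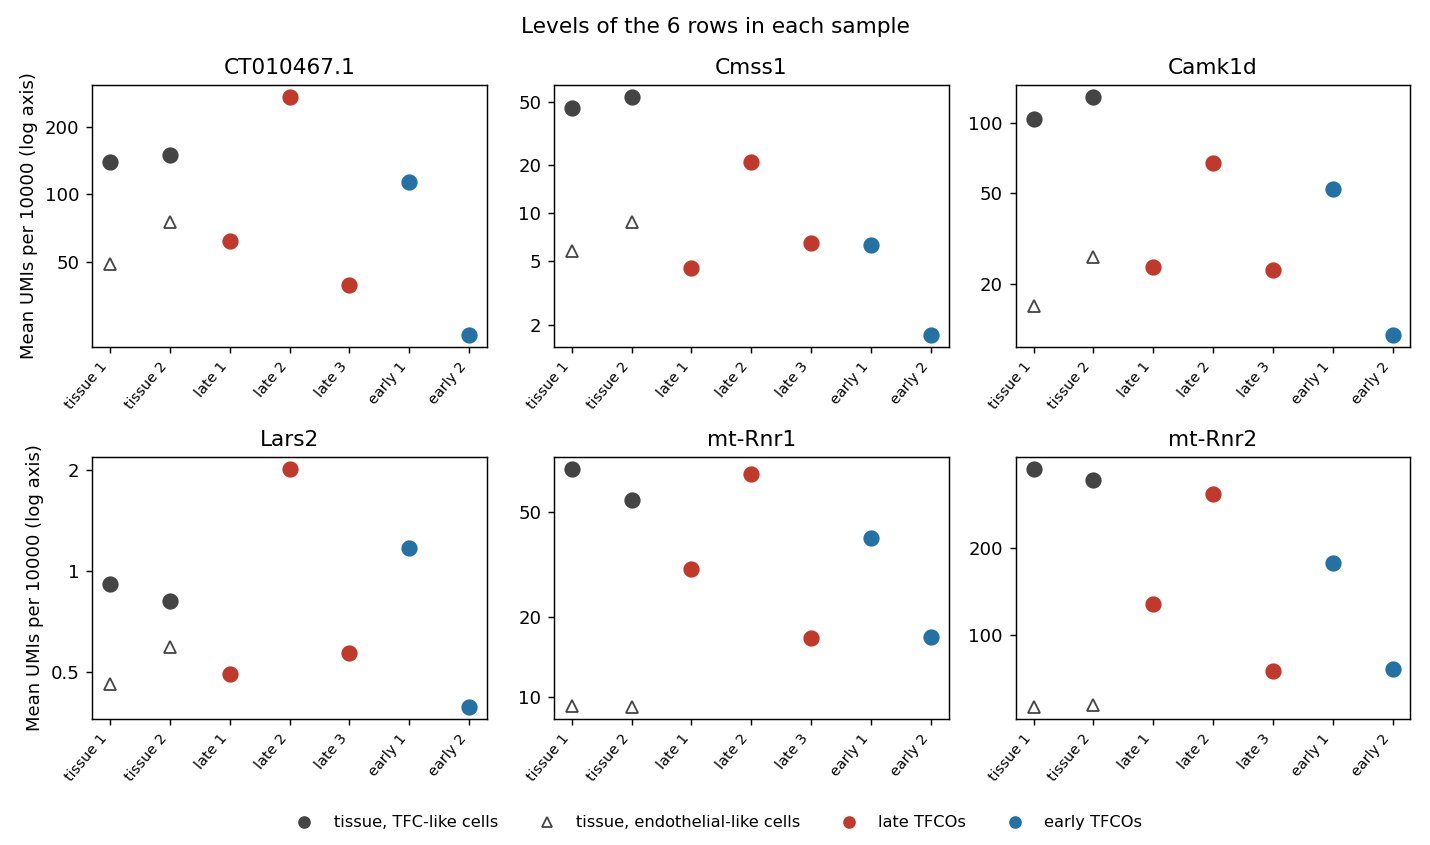
Mean level of each of the 6 rows (UMIs per 10000, log axis) in each of the 7 samples, 1 point per sample. Filled grey points are tissue TFC-like cells, open triangles tissue endothelial-like cells, red points late and blue points early TFCOs. In each panel late 2 is the highest and early 2 or late 3 the lowest of the TFCO samples.

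Every cell class of the tissue contained the members, at levels that differed by class. The share of cells with a UMI of CT010467.1 was 93.5% to 100% over the tissue classes. TFC-like cells had the highest mean of CT010467.1, Cmss1, Camk1d, mt-Rnr1 and mt-Rnr2 in both tissue samples. For CT010467.1 endothelial-like cells stood at 48.6 and 75.4 UMIs per 10000, which was 34.7% and 50.3% of the TFC-like level of the same sample. Immune-like cells were at 48.7 and 80.0 and mural-like cells at 57.2 and 48.7, close to endothelial-like cells. Stromal-like cells, of which there were only 15 and 6, stood higher at 78.4 and 109. Cells of the tissue cluster left unnamed (30 and 46) were at 84.5 and 108.

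The gap between the classes was wider for Camk1d, Cmss1 and the mitochondrial rRNAs, and narrower for Lars2, whose endothelial-like level was 50.6% and 72.5% of the TFC-like level. Camk1d in endothelial-like cells was 16.1 and 26.4 UMIs per 10000, or 15.5% and 20.3% of the TFC-like level, and Cmss1 was 5.84 and 8.87, or 12.9% and 16.6%. mt-Rnr2 was 56.1 and 56.9 in endothelial-like cells, or 15.0% and 16.6%, and mt-Rnr1 was 9.25 and 9.21, or 12.8% and 16.6%. Malat1, a nuclear RNA, went the other way, with an endothelial-like level of 423% and 182% of the TFC-like level. The thyroglobulin mRNA Tg, which only TFCs should make, had a UMI in 100% of the cells of every tissue class, and its endothelial-like level was 1.35% and 2.54% of the TFC-like level. The members thus stood in endothelial-like cells at a share of the TFC-like level well above that of Tg. With 2 tissue samples no test between classes was made.

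Depth differed between these classes, with median UMIs per cell of 2260 and 2220 in TFC-like and 3920 and 4150 in endothelial-like cells. Over cells of 1000 to 5000 UMIs, CT010467.1 was 141 and 157 UMIs per 10000 in TFC-like against 39.2 and 74.8 in endothelial-like cells. Camk1d was 110 and 133 against 14.9 and 27.2, and mt-Rnr2 was 367 and 366 against 61.3 and 58.8. The gap between the classes was therefore of the same size at like depth.

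The rows did not keep 1 ratio across samples and classes. CT010467.1 was 3.09 and 2.80 times the Cmss1 level in tissue TFC-like cells but 13.7, 13.0 and 6.05 times in late and 17.9 and 13.5 times in early TFCOs. Endothelial-like cells of the same tissue samples had ratios of 8.32 and 8.50, between those of TFC-like cells of tissue and of most TFCOs. Immune-like cells had 4.24 and 5.45. The ratio of CT010467.1 to Camk1d was 1.35 and 1.16 in tissue TFC-like cells, 3.02 and 2.86 in endothelial-like cells and 1.69 to 4.08 in TFCOs. That of mt-Rnr2 to mt-Rnr1 was 4.19 to 4.48 over the TFCO samples and 5.18 and 6.17 in tissue TFC-like cells. Between tissue classes it ran from 3.37 and 3.13 in stromal-like cells and 4.16 and 3.58 in mural-like cells to 6.85 and 5.81 in immune-like cells.

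**Figure D2:**
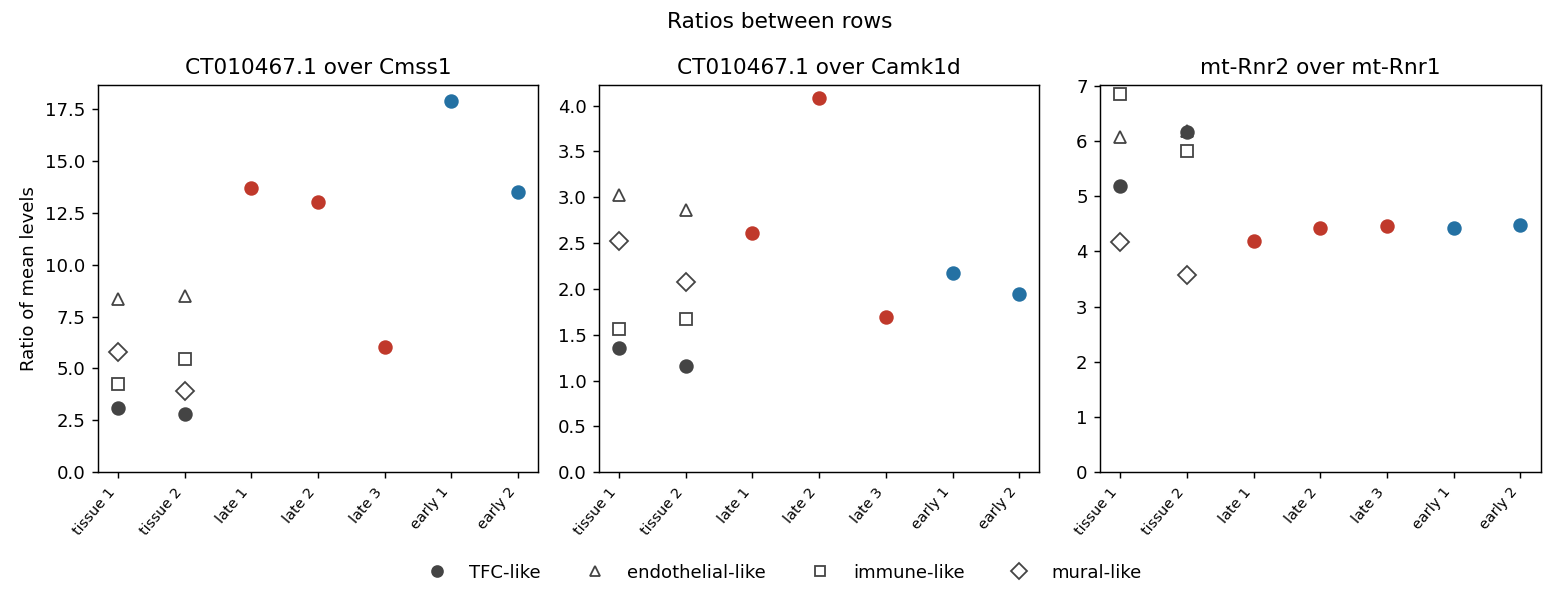
Ratio of the mean levels of pairs of rows by sample, with tissue classes in grey (filled circles TFC-like, open symbols endothelial-like, immune-like and mural-like) and TFC-like cells of late (red) and early (blue) TFCOs. The ratio of CT010467.1 to Cmss1 is 3.09 and 2.80 in tissue TFC-like cells and 6.05 to 17.9 in TFCOs, while mt-Rnr2 to mt-Rnr1 stays between 4.19 and 4.48 in TFCOs.

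The correlation of the members over cells was computed within each sample, as Spearman's rho over the 235 to 360 cells of at least 1000 UMIs. Cells of a sample share a plate, a library and the scaling to their own depth, so these values are descriptions. CT010467.1, Camk1d and Cmss1 formed one set, with rho of 0.63 to 0.78 over the 7 samples for CT010467.1 and Camk1d (median 0.72), 0.45 to 0.80 for CT010467.1 and Cmss1 (median 0.64) and 0.44 to 0.78 for Cmss1 and Camk1d (median 0.67). mt-Rnr1 and mt-Rnr2 formed another, with 0.64 to 0.87 (median 0.78). Between the sets the values were lower, with medians of 0.46 and 0.48 for CT010467.1 with mt-Rnr1 and mt-Rnr2. Lars2 correlated weakly with CT010467.1 (0.13 to 0.58, median 0.23) and with the mitochondrial rRNAs (medians 0.12 and 0.09), and at its few counts a weak value is no finding.

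By the medians over the 7 samples, neither set followed other abundant RNAs as closely. CT010467.1 had medians of −0.06 with the summed mitochondrial mRNAs, 0.06 with the summed ribosomal protein genes and 0.12 with Malat1. Samples differed in sign, from −0.34 to 0.28 for the mitochondrial mRNAs and from −0.28 to 0.46 for the ribosomal protein genes. In early 2 rho with the ribosomal protein genes (0.455) was about that with Cmss1 (0.446). mt-Rnr2 had a median of 0.37 with the mitochondrial mRNAs, with a range of 0.12 to 0.75, against a median of 0.78 with mt-Rnr1. This gap was that of the TFCOs, where rho with the mitochondrial mRNAs was 0.12 to 0.47. In tissue it was 0.75 and 0.71, about the same as the 0.78 and 0.71 with mt-Rnr1. Within the TFC-like cells of tissue alone, rho was 0.77 and 0.84 for Cmss1 and Camk1d, 0.54 and 0.63 for CT010467.1 and Camk1d, and 0.02 and 0.32 for CT010467.1 and mt-Rnr2. The link between CT010467.1 and the mitochondrial rRNAs was thus weaker within tissue TFC-like cells than over all cells of the samples.

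**Figure D3:**
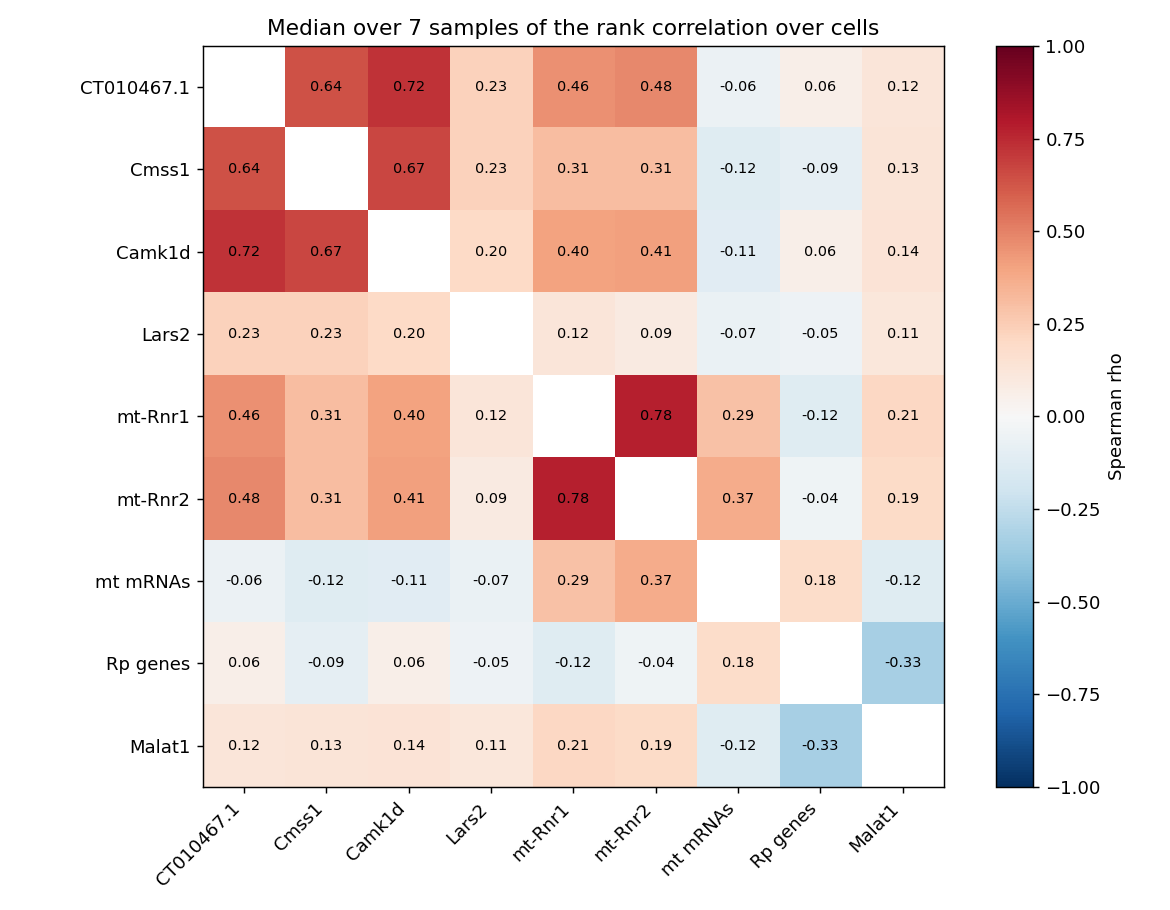
Heat map of the median over the 7 samples of Spearman's rho over cells (colour and printed value, scale −1 to 1) between the 6 rows, the summed mitochondrial mRNAs (mt mRNAs), the summed ribosomal protein genes (Rp genes) and Malat1. The darkest fields are CT010467.1, Cmss1 and Camk1d with each other (0.64 to 0.72) and the pair of mitochondrial rRNAs (0.78).

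Of 4780 genes ranked by their median rho, the closest to CT010467.1 were Camk1d, Cmss1 and Gm19951, a lincRNA at chr12:99643093-99647221, with a median of 0.55 and a range of 0.40 to 0.65. Gm19951 also came next after the members for Cmss1 and Camk1d, with medians of 0.62 and 0.60. Gm19951 had 4.78 and 7.24 UMIs per 10000 in TFC-like cells of tissue, 1.01, 3.35 and 1.75 in late TFCOs and 3.96 and 0.742 in early TFCOs, with late 2 and early 1 the highest TFCO samples. The closest gene to mt-Rnr2 after mt-Rnr1 was Gm49817 (median 0.57, range 0.30 to 0.77), which followed mt-Rnr2 and CT010467.1 for mt-Rnr1 (0.45). For Lars2 it was Kpna1, an importin gene at chr16:35978750-36037131 that has Gm15564 on its opposite strand, with a median of only 0.26.

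The level of a feature can also follow the depth of its cell. Over every deposited cell, rho of CT010467.1 with the UMIs of the cell was −0.17 and −0.09 in tissue, 0.49, 0.24 and 0.41 in late TFCOs and 0.48 and 0.43 in early TFCOs. For Camk1d it was −0.03 and −0.02 in tissue, 0.45, 0.24 and 0.46 in late TFCOs and 0.60 and 0.56 in early TFCOs. mt-Rnr2 had −0.27 in both tissue samples and 0.02 to 0.22 in TFCOs. CT010467.1 and Camk1d hence took a larger share of UMIs in deeper organoid cells, and mt-Rnr2 did so little. The summed ribosomal protein genes did so too outside late 2, with rho of 0.42, 0.07 and 0.57 in late TFCOs and 0.47 and 0.58 in early TFCOs. Malat1 had 0.16 to 0.46 over the TFCO samples. The summed mitochondrial mRNAs did not, with 0.07, −0.21 and 0.06 in late TFCOs and −0.30 and −0.03 in early TFCOs.

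In early 2, CT010467.1 was at 10.5 UMIs per 10000 in cells under 1000 UMIs and at 37.1 in cells over 10000. In late 1 the same bins stood at 15.2 and 91.9, and in tissue 1 they stood at 187 and 82.5, in the opposite order, although tissue bins mix cell classes of unlike depth. The bin of 1000 to 2000 UMIs held only 8 cells in late 2 and 10 in late 3. The level of late 2 was 289 in cells over 10000 UMIs and that of early 2 was 37.1, so the gap between these samples held at like depth. Across cells of 1000 to 5000 UMIs, late 2 was at 270 and early 2 at 14.6. Over cells of at least 1000 UMIs alone, which in TFCOs are all TFC-like, the median TFCO rho of CT010467.1 with depth was 0.20 in place of 0.43. For the summed ribosomal protein genes rho was then 0.12, −0.025 and 0.002 in late TFCOs and 0.18 and 0.60 in early TFCOs.

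**Figure D4:**
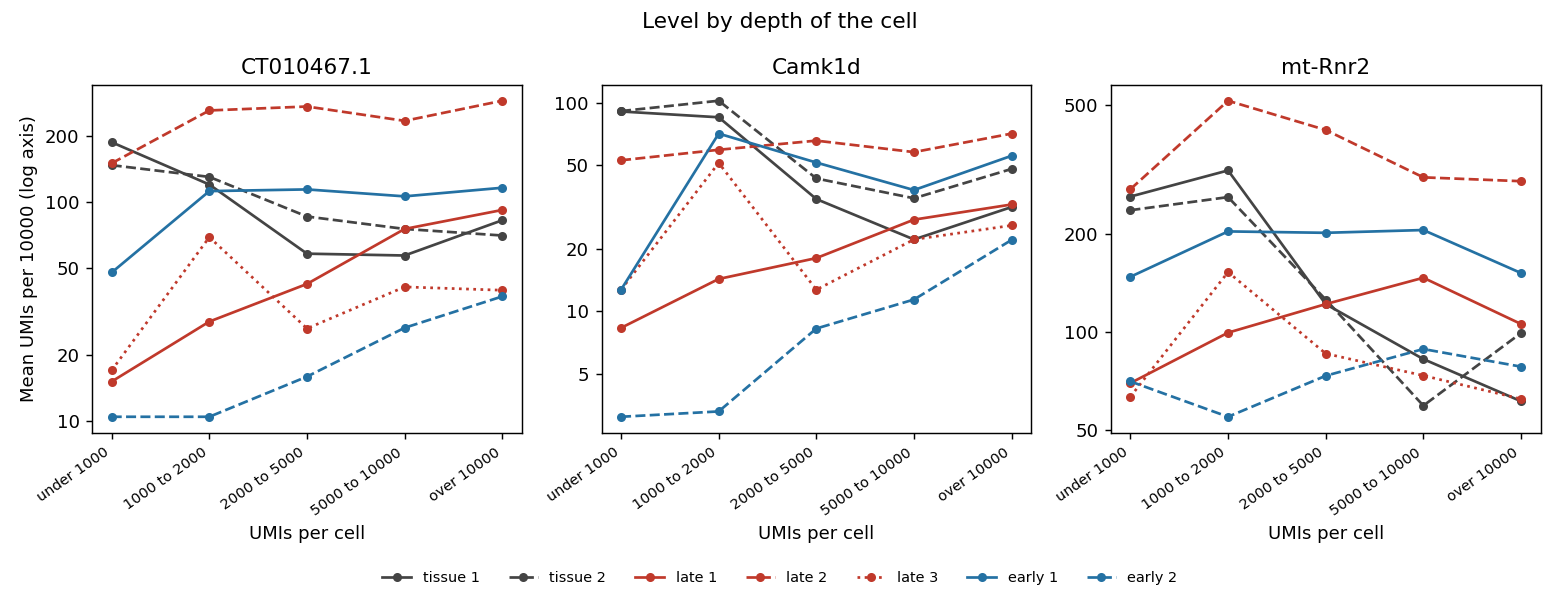
Mean level (UMIs per 10000, log axis) of CT010467.1, Camk1d and mt-Rnr2 by the depth of the cell in 5 bins of UMIs per cell, 1 line per sample (grey tissue, red late, blue early), all cell classes included. CT010467.1 runs from 10.5 to 37.1 in early 2 and from 187 to 82.5 in tissue 1, and in its panel late 2 lies above the other TFCO samples in every bin.

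Members were also uneven between cells. In late 2, 17.8% of the cells held 50% of the CT010467.1 UMIs, and in early 2 it was 8.31% of the cells. In tissue 2 only 2 of 273 cells held 50% of the Cmss1 and of the Camk1d UMIs. The deepest cell of tissue 2, a TFC-like cell of 268847 UMIs, held 16.9% of the UMIs of its sample and 25.1% of those of the members. A second cell there had 151110 UMIs, and no other sample had a cell over 100000. Each cell counts once in the means, so these cells weigh no more than others there. The plates share their well barcodes, and the correlation of levels between organoid cells that sat on different plates under 1 barcode was 0.0383 for CT010467.1 and 0.0892 for Camk1d, the highest of the members, against a median of 0.0145 over 19498 genes. In tissue the highest was Cmss1 with 0.138.

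The first comparison asked how the TFC-like cells of TFCOs differed from those of tissue. The fit was limma on log2(mean UMIs per 10000 + 1), over all 7 samples, and the members are described without a test, since their levels in these groups were known when they were picked. Cmss1 was lower in TFCOs by a log2 difference of −2.93 (SE 0.72), Camk1d by −1.96 (SE 0.78) and mt-Rnr2 by −1.47 (SE 0.74). For these 3 rows the mean of every TFCO sample was below that of every tissue sample, which was true of 10.9% of the 4347 genes tested. By the median over cells, late 2 lay between the tissue samples for Cmss1 (15.1 against 13.0 and 18.1) and mt-Rnr2 (280 against 323 and 240). For Camk1d the median of late 2 stayed below both (49.5 against 54.6 and 69.7). For mt-Rnr2 this did not hold over cells of 1000 to 5000 UMIs, where late 2 was at 439 UMIs per 10000 and tissue at 367 and 366. CT010467.1 (−1.09, SE 1.01), mt-Rnr1 (−1.08, SE 0.71) and Lars2 (−0.03, SE 0.36) overlapped between the groups. The median over all genes was 0.21, and with samples centred on their median gene the differences were −3.11 for Cmss1, −2.14 for Camk1d, −1.65 for mt-Rnr2 and −1.27 for CT010467.1.

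For all rows but Lars2, the choice of cells changed these values more than any other alternative did. With all cells of the tissue in place of TFC-like cells, the difference was −0.26 for CT010467.1, −0.68 for Camk1d, −1.56 for Cmss1, −0.14 for mt-Rnr2 and 0.20 for mt-Rnr1. TFC-like cells made up 53 of 305 and 51 of 273 tissue cells, and the other classes stood lower. Over the 21 alternatives run, Cmss1 ranged from −3.29 to −1.56 and CT010467.1 from −1.65 to −0.26.

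The machinery that makes and matures rRNA was read from lists that do not contain the members. Over all genes tested in the same comparison, 1252 of 4347 (28.8%) passed the threshold of an adjusted p of 0.05, 956 (22%) higher and 296 (6.81%) lower in TFCOs. This split depended on scaling, as 76.4% of the calls were higher in TFCOs here and 48.2% of 863 calls were higher after centring on the median gene. Of 20 genes of RNA polymerase I and its factors 5 were tested and 2 rose: Taf1c, a subunit of the promoter selectivity factor, and Polr1d, a subunit of the polymerase. Taf1c stood at 0.248 and 0.238 UMIs per 10000 in tissue and 1.03 to 1.68 in TFCOs (log2 difference 0.82, SE 0.17, limma adjusted p = 0.00676). Polr1d stood at 0.521 and 0.711 against 1.16 to 1.75 (0.58, SE 0.18, adjusted p = 0.0299), and did not pass after centring (adjusted p = 0.119).

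Of 36 genes of pre-rRNA processing 6 were tested and 2 rose. Npm1, nucleophosmin, a major protein of the nucleolus, was at 1.33 and 2.06 UMIs per 10000 in tissue and 4.61 to 6.86 in TFCOs (log2 difference 1.27, SE 0.26, limma adjusted p = 0.00626). Ddx21, a nucleolar RNA helicase, was listed at 0 in tissue 1 and at 0.0294 in tissue 2 and reached 0.666 to 1.12 in TFCOs (0.94, SE 0.16, adjusted p = 0.00285). In tissue, Taf1c and Ddx21 were below the filter of 0.5 UMIs per 10000, so they were tested only through their levels in TFCOs. Both still passed with no filter on low values. The filter favours rises in the counts of tested genes, here and over all genes. Medians of the tested members were 0.23 for the polymerase list and 0.43 for processing, beside 0.21 over all genes. Of 75 tested genes of cytosolic ribosomal proteins, 5 rose and none fell, with a median of 0.27. Rpl4 (1.59, limma adjusted p = 0.00905), Rpl5 (1.26, adjusted p = 0.0148) and Rpl17 (1.06, adjusted p = 0.0281) had the largest differences, of which Rpl17 did not pass after centring (adjusted p = 0.0643). Beside these counts stand the 22% of all genes that rose.

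Of the mitochondrial mRNAs 7 were tested and 1 fell: mt-Co1, a subunit of cytochrome c oxidase, was at 48.1 and 27.2 UMIs per 10000 in tissue and 6.56 to 14.8 in TFCOs (log2 difference −1.81, SE 0.48, limma adjusted p = 0.0163). The median of the 7 was −0.78, beside −1.47 for mt-Rnr2. Of the genes of mitochondrial RNA synthesis only 1 of 19 was tested and it did not pass. Of 3 tested nuclear retained RNAs, Neat1 (1.75, adjusted p = 0.00528) and Kcnq1ot1 (1.03, adjusted p = 0.0133) rose. Neither passed with no filter on low values. Kcnq1ot1, at 0.0953 and 0.121 UMIs per 10000 in tissue, was likewise tested only through its levels in TFCOs. Dissociation stress genes, given for context, summed to 1.78 and 4.76 UMIs per 10000 in the TFC-like cells of tissue and 3.67 to 8.32 in TFCOs, and their part in these differences was not tested.

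The second comparison set late against early passage TFCOs, for which the members are again described without a test, as their levels in these samples were known. The 3 late and 2 early samples overlapped for all 6 rows. Over all genes tested by limma, 1 of 4347 (0.023%) passed and 901 (20.7%) had an unadjusted p under 0.05. CT010467.1 was higher in late TFCOs by 0.74 on the log2 scale (SE 0.73) and Cmss1 by 1.12 (SE 0.52). Camk1d differed by 0.38 (SE 0.56), Lars2 by 0.14 (SE 0.26), mt-Rnr1 by 0.33 (SE 0.51) and mt-Rnr2 by 0.30 (SE 0.53). Except for Cmss1, these differences were within or close to 1 standard error.

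Late 2 and early 2 decided the direction for all rows but Cmss1. Without late 2 the difference of CT010467.1 was −0.07 and that of mt-Rnr2 −0.25, and without early 2 they were −0.37 and −0.30. Leaving out an early sample leaves 1, which is then assumed to vary like the other groups. Cmss1 remained positive in all 21 alternatives, from 0.41 to 1.83. None of the 7 lists had a gene past the threshold between passages.

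The third comparison asked whether the members differed between proliferating and other TFC-like cells of the same organoid sample. There were 19, 75 and 20 proliferating cells in late 1 to 3 and 51 and 12 in early 1 and 2, and the members were left out of the clustering that defined them. Both mitochondrial rRNAs fell in proliferating cells, in 5 of 5 samples, and were the 2 members of 6 that passed, against 6.47% of the 4776 genes tested (218 genes or 4.56% higher, and 91 or 1.91% lower). mt-Rnr1 was at 25.0, 60.4, 13.1, 26.6 and 11.3 UMIs per 10000 in proliferating cells of late 1 to 3 and early 1 and 2, and at 30.9, 71.9, 17.0, 43.6 and 17.2 in other cells. Each sample was lower, by 0.25 to 0.69 on the log2 scale, and the fitted difference was −0.43 (SE 0.09, limma adjusted p = 0.0159).

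mt-Rnr2 was at 103, 265, 65.8, 125 and 67.7 UMIs per 10000 in proliferating cells and at 130, 319, 75.2, 191 and 76.3 in other cells of the same samples. Its fitted difference was −0.31 (SE 0.07, limma adjusted p = 0.0216), and being lower in 5 of 5 samples was shared by 9.11% of genes. CT010467.1 (−0.14, adjusted p = 0.381), Cmss1 (−0.20, adjusted p = 0.306), Lars2 (−0.16, adjusted p = 0.377) and Camk1d (−0.09, adjusted p = 0.712) were each lower in 4 of 5 samples and did not pass.

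**Figure D5:**
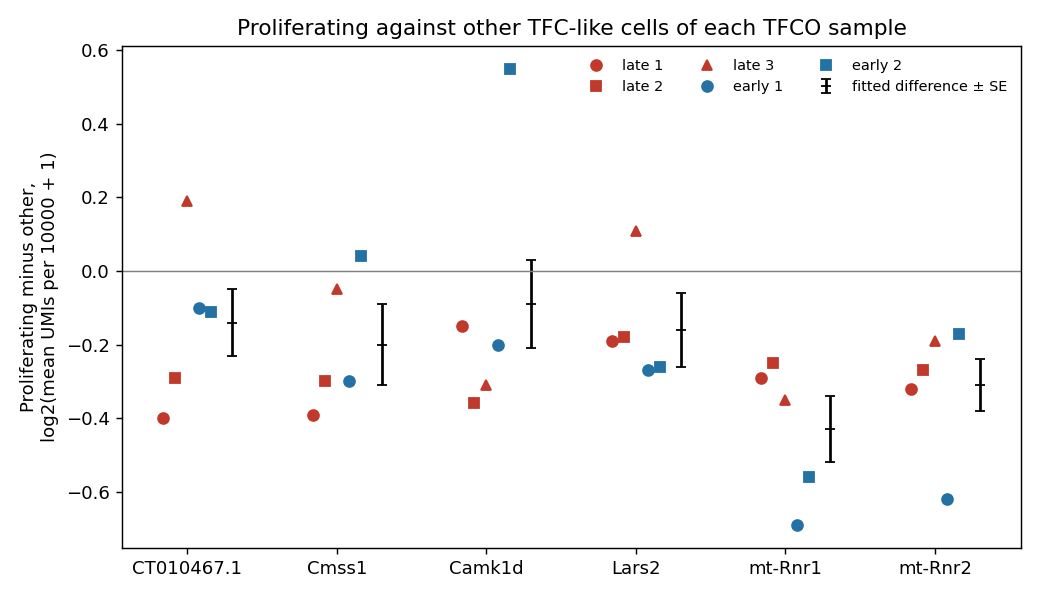
Difference between proliferating and other TFC-like cells in log2(mean UMIs per 10000 + 1), for each of the 6 rows. Points are the 5 TFCO samples (red late, blue early) and bars the fitted difference with its SE. For mt-Rnr1 and mt-Rnr2 the 5 points lie below 0, and for each of the other rows 4 of 5 do.

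Proliferating cells were deeper, with a median of 18668 UMIs against 8764.5 in early 1, for instance. When the other cells were matched on depth, mt-Rnr2 still passed (limma adjusted p = 0.0361) and mt-Rnr1 did not (adjusted p = 0.0713). The calls were lost without late 3 (adjusted p of 0.0594 for mt-Rnr1 and 0.0582 for mt-Rnr2) and without early 1 (0.0911 and 0.112), and that of mt-Rnr2 also without late 1 (0.0948) and late 2 (0.0527). Neither passed with no filter on low genes (adjusted p of 0.177 for mt-Rnr1 and 0.203 for mt-Rnr2) or over cells of 1000 to 5000 UMIs (0.456 and 0.248), and mt-Rnr2 did not with UMIs summed over cells (0.116). The proliferating difference was not shown to vary with passage for any member, with adjusted p from 0.863 to 0.964 for the interaction, where none of 4776 genes passed by limma and 242 (5.07%) had an unadjusted p under 0.05.

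In the same cells, 1 of 7 tested mitochondrial mRNAs fell, mt-Nd4 (−0.30, SE 0.07, limma adjusted p = 0.0202), a subunit of respiratory complex I, and the median of the list was −0.13. The call of mt-Nd4 was lost with depth-matched other cells (adjusted p = 0.126) and held in 9 of 17 alternatives. Of 11 tested genes of pre-rRNA processing 1 rose, Nop56, a core protein of the particles that methylate rRNA, from 0.169 to 0.393 UMIs per 10000 in other cells to 0.512 to 1.30 in proliferating cells (0.58, SE 0.11, adjusted p = 0.00554). Nop56 was below the filter of 0.5 in other cells and was tested only through its level in proliferating cells, which favours a rise. None of 6 polymerase I genes and none of 77 ribosomal protein genes passed. The nuclear RNAs Neat1 (−1.0, adjusted p = 0.000157) and Malat1 (−0.72, adjusted p = 0.0056) fell, also with depth-matched other cells (adjusted p of 0.000241 and 0.000818). Over cells of 1000 to 5000 UMIs neither passed (0.786 and 0.975), nor did Nop56 (0.647), and with no filter on low genes Malat1 (0.191) and Nop56 (0.123) did not. Malat1 was at 18.0 in proliferating and 25.9 in other cells of late 2, and at 4.08 and 10.7 in early 2. CT010467.1, by comparison, stood at 232 in proliferating and 283 in other cells of late 2, and at 21.8 and 23.6 in early 2.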

How the data were processed

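The authors deposited 1 table of 30879 rows and 2590 cells, holding the natural log of UMIs scaled to 10000 per cell after adding 1, and a list of 384 well barcodes. Per the submitters' processing notes, Trim Galore 0.4.3, STAR 2.5.3a and Seurat were used on GRCm38 (mm10). Dividing each cell by its smallest value gave whole UMIs within a tolerance of 0.01. How reads placed at several loci were counted, which bears on rRNA, and whether strand was used are not given in the sources used here. The members and gene lists were chosen with earlier results of these data known.

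Cells of at least 1000 UMIs were clustered with scanpy 1.11.5 (2000 variable genes without the members, 30 components, 15 neighbours, Leiden resolution 1), tissue and TFCOs apart. Also left out were 4174 of 19498 genes whose levels correlated above 0.05 between TFCO cells of different plates under 1 barcode. The naming rule was settled after the clusters were seen: the highest marker list, at least 3 markers in 10% of the cells, and no more markers of another list among the 10 leading genes. A cluster with none of its own markers there was left unnamed if its depth was under 0.333 of its samples' median. The shallowest TFCO cluster stood at 0.346. Clusters with proliferation markers at a median of 40% or more of the cells were called proliferating. No doublet caller was run. In the TFC-like clusters, 5 cells with a higher score of another type were set aside.

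Levels were averaged over the cells of a sample and fitted with limma 3.58.1 in R 4.3.3 on log2(level + 1), with trended empirical Bayes and Benjamini-Hochberg adjustment over genes of at least 0.5 UMIs per 10000. This minimum applied to the mean over the 3 groups, or over the proliferating and other sets of the TFCO samples. A gene low in 1 set could thus be tested through its level in another. The 3 groups shared 1 fit, with a weight of 0.482 for tissue and 1.34 for TFCO samples. Proliferating and other cells were fitted with sample as a term. The fits were tested on simulated data. Fold differences of low genes are understated by the pseudocount. Named genes were, besides the members, the 3 most correlated with each member and, of each list, up to 3 past the threshold of 0.05 by size (all, if 5 or fewer, in the later comparisons). Sequences are from the GENCODE M21 transcripts. The result of 1 gene list is not reported here.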

Additional observations from a re-analysis of the deposited data

Results flagged for a closer look

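In 2 of 6 sets of 5 TFCO values, the proliferating minus other differences of the 6 rows, 1 sample lay far from the others by a gap above the critical value of 0.71 of the whole range, where chance alone would give about 1 in 20. For Lars2, the proliferating minus other difference was 0.11 on the log2 scale in late 3 and −0.27 to −0.18 in the others (gap 0.754 of the range). For Camk1d it was 0.55 in early 2, which had 12 proliferating cells, and −0.36 to −0.15 in the others (gap 0.768 of the range). No explanation was tested.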

How the results depend on the processing

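TFCO against tissue gave 1252 genes; this became 789 with no filter on low values, 353 with a filter at 2 per 10000, 1952 with equal weights, 753 at a minimum of 2000 UMIs, 158 with UMIs summed over cells, 2956 with all cells, and 932 to 1895 without 1 sample (1895 without tissue 2). Late against early gave 1 gene, 55 at a minimum of 500 UMIs, 31 for cells of 1000 to 5000 UMIs and 1 to 264 without 1 sample (264 without early 1, 2 without late 2). Without late 2 the late minus early differences reversed to −0.07 for CT010467.1, −0.18 for Lars2, −0.11 for Camk1d, −0.20 for mt-Rnr1 and −0.25 for mt-Rnr2, and without early 2 to −0.37, −0.18, −0.62, −0.27 and −0.30, while without early 1 they were 1.85, 0.46, 1.39, 0.92 and 0.91. That of Lars2 was −0.14 over cells of 1000 to 5000 UMIs. Proliferating against other cells gave 309 genes, 88 with no filter, 128 with a filter at 2, 14 for cells of 1000 to 5000 UMIs, 501 with summed UMIs, 194 with depth-matched cells, and 145 to 357 without 1 sample (145 without late 3, 194 without early 1, 201 without late 1). There mt-Rnr1 passed in 12 of 17 alternatives and mt-Rnr2 in 10 of 17, and Camk1d reversed to 0.04 at a minimum of 500 UMIs. Of the genes named from lists in TFCO against tissue, Ddx21 passed in all 20 alternatives. Polr1d passed in 15 of 20, Rpl17 in 16 of 21 and mt-Co1 in 18 of 21. With UMIs summed over cells none of these 3 passed, nor did Taf1c, Npm1, Rpl4, Rpl5, Neat1 and Kcnq1ot1. The median TFCO rho of CT010467.1 with depth was 0.20 over TFC-like cells only, which in TFCOs are all cells of at least 1000 UMIs, and 0.43 over every cell. The minimum depth is thus what separates these values. The cause of the other shifts was not tested. With 2 or 3 samples a group and 1 library per sample, sample and library cannot be told apart. No paired analysis was possible because the labels tie no organoid sample to a tissue sample.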
